A study of Mus musculus with 4 samples.

Results

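The spermatogonial stem cell genes described here are 10 genes, Id4, Gfra1, Ret, Zbtb16, Etv5, Nanos2, Sall4, Lin28a, Foxo1 and Bcl6b, taken by symbol from 24426 genes in the deposited expression table. All 10 symbols were found, each in 1 row. The cells came from male C57BL/6 mice, for which no transgene or treatment is given, and testicular cells were separated by gravity sedimentation. SG, the spermatogonia titled type A, were pooled from 30 mice of 7 days. The spermatocyte stages came from 5 mice of 17 days and are PlpSC for preleptotene, L/ZSC for leptotene with zygotene, and PaSC for pachytene. Total RNA depleted of ribosomal RNA was sequenced in 1 library per stage, so no stage has a replicate and no difference between stages could be tested. Values are FPKM, a fragment number divided by the kilobases of the transcript and by the depth of its library, as the authors deposited them. By these labels, age and stage cannot be told apart for SG, since every other library is given as coming from older mice.

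Spermatogonial stem cells are the few undifferentiated spermatogonia that both renew themselves and supply every later germ cell. Sertoli and peritubular myoid cells secrete GDNF, which binds the co-receptor GFRA1 and signals through the receptor tyrosine kinase RET, and in cultured stem cells this signal raises transcription factor genes such as Etv5 and Bcl6b. Other factors, among them ZBTB16 (PLZF), SALL4, FOXO1 and ID4, and the RNA-binding proteins NANOS2 and LIN28A, are known from the undifferentiated pool and hold back differentiation or mark it. Most of these RNAs are lost or fall as spermatogonia differentiate and enter meiosis, so the labels would place their highest level in the SG library.

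Before the values, the labels themselves need a caution. Among lncRNAs at 0.5 FPKM or more both in the deposited table and in the list of lncRNAs published with the study, all 653 ratios of the SG-labelled library to the PaSC column of that list lay within 1% of their median, against 4 of 373 for the list's SG column. The PlpSC-labelled library held the PlpSC values of the list for all 642 such lncRNAs. For the libraries with the L/ZSC and PaSC labels, only 10 of 559 and 5 of 577 ratios to the columns of the same name lay that close. Against the other columns of the list, these 2 libraries reached at most 10 of 586 and 6 of 323. The list's SG column was matched by no library, with 4 of 373 (SG label), 2 of 401 (PlpSC label), 2 of 313 (L/ZSC label) and 6 of 323 (PaSC label). Pachytene genes were also abundant in the SG-labelled library: 8 of them summed to 5041 FPKM there, 663 FPKM in the PlpSC-labelled library, 7803 in the L/ZSC-labelled library and 8394 in the PaSC-labelled library, although testes of 7 days do not yet hold pachytene cells. For this reason the stage names below are labels only, and every statement on the SG-labelled library concerns that column, which need not hold spermatogonia. The files give no read counts. Low FPKM multiplied by transcript length nevertheless fell into steps, with 59 to 76 genes near 1 step and 5 to 24 between 1.3 and 1.7 steps. The steps were least clear in the SG-labelled library, with 24 genes between 1.3 and 1.7 steps and 32 near 2. Sought only between 0.03 and 0.07, 1 step was worth 0.0435 to 0.0546 FPKM in a transcript of 1 kb. The longest coding transcript gave the length of each member. Fragment numbers below are estimated from these steps and are approximate, and intervals made from them cover counting error only, not differences between animals or preparations.

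None of the 10 genes was highest in the SG-labelled library. In the deposited values 7 of them, Gfra1, Ret, Zbtb16, Etv5, Sall4, Lin28a and Foxo1, were highest in the PlpSC-labelled library, Id4 and Nanos2 in the L/ZSC-labelled library, and Bcl6b in the PaSC-labelled library. Of the 10, 9 reached 0.5 FPKM in at least 1 library, while Nanos2 stayed just under it. Over all 16652 genes that reached 0.5 FPKM, 16.3% were highest in the SG-labelled library, 41.3% in the PlpSC-labelled library, 15.1% in the L/ZSC-labelled library and 27.4% in the PaSC-labelled library. The PlpSC-labelled library was thus the commonest place of a maximum for genes of any kind as well. Ret, Zbtb16, Etv5, Sall4, Lin28a and Foxo1 shared 1 complete order of labels, PlpSC, then SG, then L/ZSC, then PaSC, which 25.1% of all genes had. Within this order the SG-labelled library was the second highest, with more of these 6 RNAs than under the L/ZSC and PaSC labels and less than under the PlpSC label. Levels per length differed widely: Id4 was the highest of the 10 under the SG, L/ZSC and PaSC labels, and Etv5, at 20.7 FPKM, stood just above Id4, at 19.7 FPKM, in the PlpSC-labelled library. In bulk RNA, fewer cells of a type and less RNA per cell cannot be told apart.

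**Figure D1:**
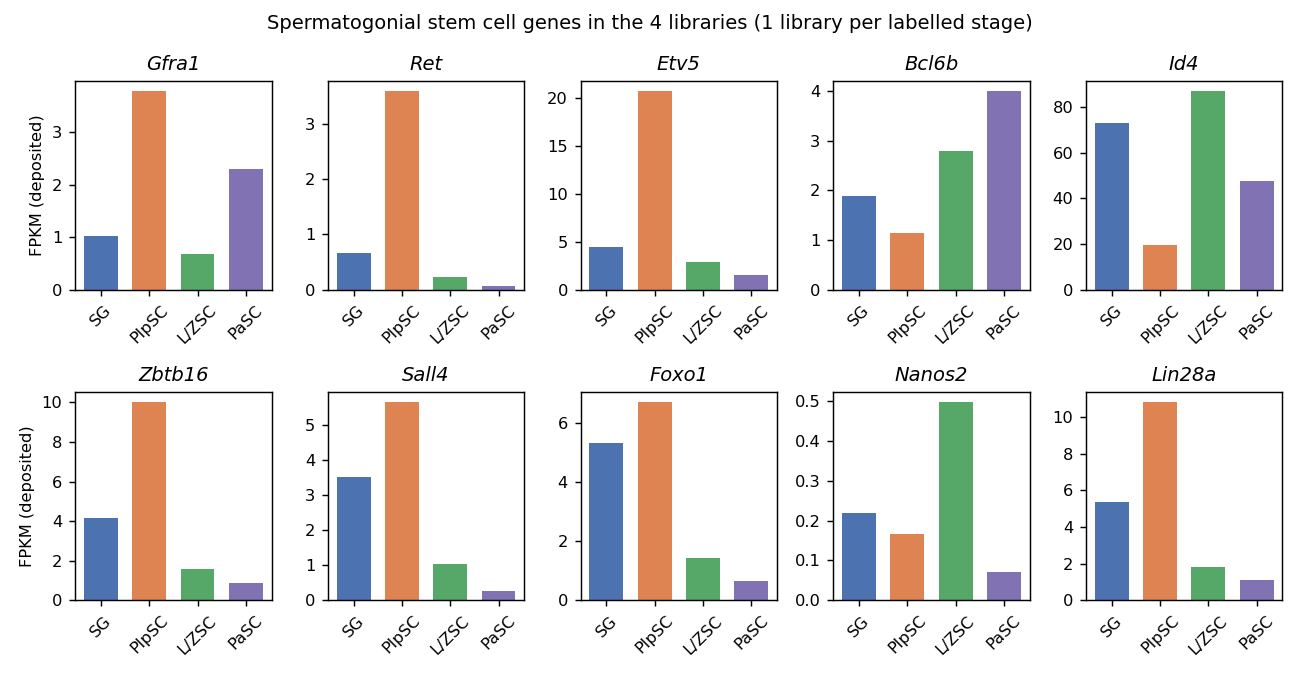
Deposited FPKM (vertical axes, each starting at 0 and with its own scale) of the 10 genes in the libraries with the SG, PlpSC, L/ZSC and PaSC labels, 1 bar per library with no replicate and so no error bar. The bar of the PlpSC-labelled library is the tallest for 7 genes, as for Etv5 at 20.7 FPKM, while Id4 and Bcl6b are lowest there, at 19.7 and 1.14 FPKM.

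Gfra1 encodes the GPI-anchored co-receptor that captures GDNF (Entrez 14585, chromosome 19, 58235581 to 58455946, GRCm38, the assembly that mm10 names). It was at 1.03 FPKM (SG label), 3.79 (PlpSC label), 0.669 (L/ZSC label) and 2.31 (PaSC label), or about 94, 322, 71 and 229 fragments. The level was therefore high in the PlpSC-labelled library, low in the L/ZSC-labelled library and high again in the PaSC-labelled library, a course that no other member followed. The PlpSC-labelled library was 3.67 times the SG-labelled library (95% counting interval 2.92 to 4.68), and the PaSC-labelled library 3.45 times the L/ZSC-labelled library (2.65 to 4.60). Gfra1 was also measured by RT-qPCR, and the primer pair is shown because it marks which transcripts that assay can read.
Gfra1 forward: tgcgtatctactggagcatgt
Gfra1 reverse: catcgaggcagttgttccctt
The forward primer matched chromosome 19, positions 58453179 to 58453199, in exon 3 of the annotated transcript of 4641 nt (GENCODE M21), and the reverse primer positions 58300543 to 58300563 in exon 6, the gene lying on the minus strand. Both sites were found in 5 of 9 annotated Gfra1 transcripts and in no other gene. The product was 171 bp on 4 of these transcripts and 156 bp on the transcript of 4415 nt, which lacks an exon of 15 nt at positions 58392573 to 58392587. That exon, in capitals, with 20 nt of the neighbouring exons on either side reads:
Gfra1 around the small exon: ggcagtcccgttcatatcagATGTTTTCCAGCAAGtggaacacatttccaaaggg
The deposited value is a single figure per gene and does not separate the forms with and without this exon.

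Ret encodes the receptor tyrosine kinase that carries the GDNF signal into the cell (Entrez 19713, chromosome 6, 118151748 to 118197744). Its level was 0.657 FPKM (SG label), 3.60 (PlpSC label), 0.235 (L/ZSC label) and 0.0679 (PaSC label). The PlpSC-labelled library stood far above the other libraries, 5.49 times the SG-labelled library (4.27 to 7.24) and 15.3 times the L/ZSC-labelled library (10.4 to 22.7). The value in the PaSC-labelled library rests on about 8 fragments (exact 95% Poisson interval 3.45 to 15.8). Between the PlpSC-labelled library and the PaSC-labelled library the highest level was 53.1 times the lowest, the widest range of the 10 genes. Ret and Gfra1 thus parted in the PaSC-labelled library, where Ret was the lowest of the 10, beside Nanos2 at 0.0714 FPKM and not told apart from it at this depth, and Gfra1 the third highest.

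Etv5 and Bcl6b encode an ETS factor and a BTB zinc finger repressor, both of which respond to GDNF in cultured stem cells. Etv5 (Entrez 104156, chromosome 16, 22381313 to 22439570) was at 4.42 FPKM (SG label), 20.7 (PlpSC label), 2.87 (L/ZSC label) and 1.505 (PaSC label). It was 4.68 times higher in the PlpSC-labelled library than in the SG-labelled library (4.15 to 5.27). Bcl6b (Entrez 12029, chromosome 11, 70224127 to 70229798) ran the other way, at 1.88, 1.14, 2.80 and 4.01 FPKM in the same order, with its lowest value in the PlpSC-labelled library and its highest in the PaSC-labelled library. Its estimated fragments were 124, 70, 217 and 288. The PaSC-labelled library was 2.13 times the SG-labelled library (1.73 to 2.66), and the ratio of the PaSC-labelled library to the L/ZSC-labelled library, 1.43 times (1.19 to 1.71), stayed within the 1.5-fold limit used for a call.

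Id4, an HLH protein that blocks other HLH factors and marks the most stem-like spermatogonia in reporter mice, had the highest level of the 10 genes outside the PlpSC-labelled library (Entrez 15904, chromosome 13, 48261116 to 48266028). It was at 73.1 FPKM (SG label), 19.7 (PlpSC label), 87.2 (L/ZSC label) and 47.8 (PaSC label). The PlpSC-labelled library was the lowest: the SG-labelled library was 3.72 times that level (3.50 to 3.94) and the L/ZSC-labelled library 4.43 times (4.18 to 4.70). The PaSC-labelled library lay between, 1.82 times lower than the L/ZSC-labelled one (1.76 to 1.90) and 1.53 times lower than the SG-labelled one (1.47 to 1.59), and the latter ratio stayed under 1.5-fold with equal sums, median ratios or division by Nudcd3. The L/ZSC-labelled library was 1.19 times the SG-labelled one. An antisense lncRNA that overlaps the start of Id4, A330033J07Rik, was at 0.242 to 0.792 FPKM, far below Id4 in each library. The strand setting of the counting is not given in the sources used here.

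Zbtb16 encodes PLZF, a zinc finger repressor that stem cells need to persist (Entrez 235320, chromosome 9, 48651797 to 48836225). It was at 4.15 FPKM (SG label), 10.0 (PlpSC label), 1.60 (L/ZSC label) and 0.892 (PaSC label). Sall4, a zinc finger factor that binds PLZF (Entrez 99377, chromosome 2, 168748332 to 168767201), was at 3.50, 5.65, 1.05 and 0.259 FPKM in the same order. Foxo1, a forkhead factor held out of the nucleus by AKT signalling (Entrez 56458, chromosome 3, 52268337 to 52350109), was at 5.32, 6.73, 1.43 and 0.663 FPKM. All 3 had the same order of libraries, and they differed in the step from the SG-labelled library to the PlpSC-labelled library, which was 2.42 times for Zbtb16 (2.16 to 2.72), 1.61 times for Sall4 (1.41 to 1.86) and 1.26 times for Foxo1 (1.16 to 1.38). Foxo1 did not pass the 1.5-fold limit there. From the SG-labelled library to the PaSC-labelled library they were lower by 4.65, 13.5 and 8.02 times.

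Lin28a encodes an RNA-binding protein that blocks maturation of let-7 microRNAs (Entrez 83557, chromosome 4, 134003330 to 134019196). It was at 5.38 FPKM (SG label), 10.8 (PlpSC label), 1.84 (L/ZSC label) and 1.09 (PaSC label), and the PlpSC-labelled library was 2.01 times the SG-labelled library (1.77 to 2.29). Nanos2, an RNA-binding zinc finger protein that keeps spermatogonia undifferentiated (Entrez 378430, chromosome 7, 18987524 to 18988962), was low in all libraries. Its values were 0.220, 0.166, 0.498 and 0.0714 FPKM, about 7, 5, 18 and 2 fragments. Exact Poisson intervals of these numbers were 2.81 to 14.4, 1.62 to 11.7, 10.7 to 28.4 and 0.242 to 7.22. Those under the SG, PlpSC and L/ZSC labels overlapped, which does not decide whether the levels differed. A difference between the SG-labelled library and the PlpSC-labelled library was not detectable at this depth (interval of the ratio 0.192 to 2.81). The L/ZSC-labelled library was 2.999 times the PlpSC-labelled library, with an interval of 1.03 to 9.87 that lay just above 1.

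Nanos2 was under the 0.5 FPKM filter and is counted at no step, which leaves 9 members. At the 1.5-fold limit, 6 of the 9 were higher in the PlpSC-labelled library than in the SG-labelled library, against 30.1% of the 16652 genes. These were Gfra1, Ret, Zbtb16, Etv5, Sall4 and Lin28a. Id4 and Bcl6b were lower, against 30.9%, and Foxo1 lay within the limit. From the PlpSC-labelled library to the L/ZSC-labelled library 7 genes, the same 6 and Foxo1, were lower by 4.71 to 15.3 times, against 45.4% of all genes. Id4 and Bcl6b were higher, against 30.7%. From the L/ZSC-labelled library to the PaSC-labelled library 7 genes were lower, against 24.6%, by 1.68 times for Lin28a to 4.04 times for Sall4, and only Gfra1 was higher, against 24.9%. Between the SG-labelled library and the PaSC-labelled library 7 genes were lower, against 39.9%, and Gfra1 and Bcl6b higher, against 24.7%. Over the 9 members the median log2(FPKM + 0.5) difference from the SG-labelled library to the PlpSC-labelled library was 0.95, where the median of the 16652 genes was 0. At the next steps it was -1.99 against -0.29, and -0.60 against -0.10. Over all 10 genes, with Nanos2 under the filter included, the medians were 0.78, -1.95 and -0.66. The members were picked as stem cell genes with earlier results of these data known, so these counts describe them and test nothing.

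**Figure D2:**
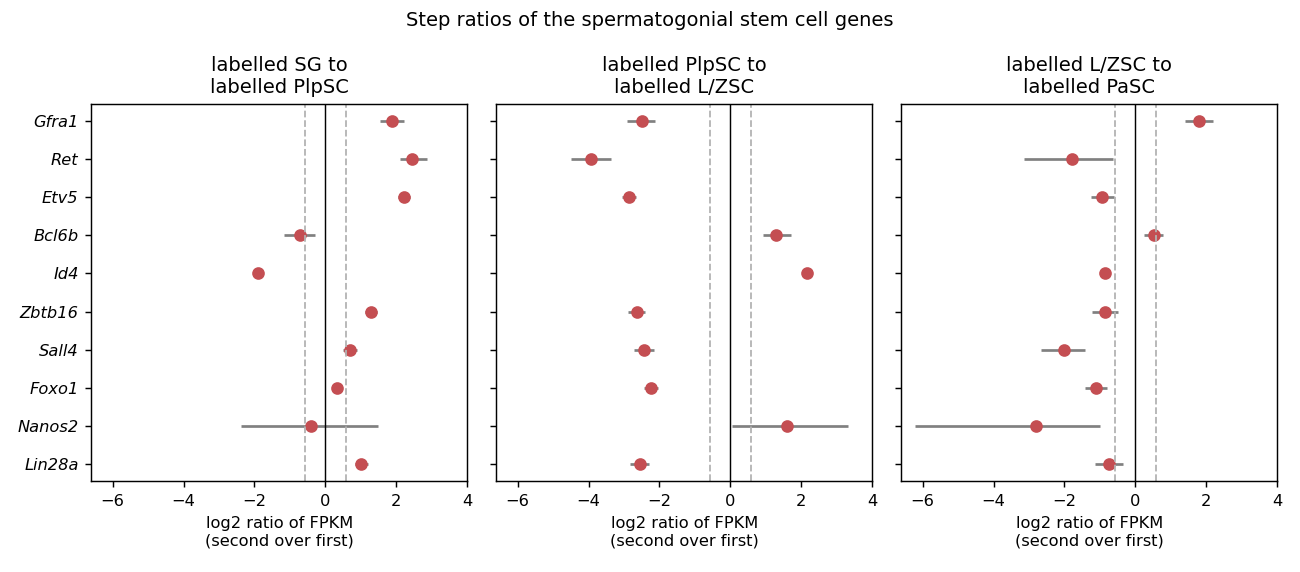
Log2 ratios of FPKM (horizontal axes, second library over first) for the 10 genes at the 3 steps. Points are the ratios of single libraries, grey lines the 95% counting intervals from estimated fragments, and dashed lines the 1.5-fold limits. Ret and Etv5 lie farthest to the right at the first step, at ratios of 5.49 and 4.68, 7 genes lie left at the middle step, and the wide lines of Nanos2 reflect 2 to 18 fragments.

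The place of the maximum depended on how the libraries were scaled. The deposited sums ran from 858436 FPKM in the PaSC-labelled library to 2571630 in the PlpSC-labelled library, where 68.1% of the sum lay in the 10 highest genes. When all libraries were given equal sums, the ratios of the PlpSC-labelled library to the SG-labelled library were shifted by -1.34 on the log2 scale, and the median of all genes moved to -1.03. Then Zbtb16, Sall4, Lin28a and Foxo1 were highest in the SG-labelled library, with the PlpSC-labelled library at 0.958, 0.639, 0.797 and 0.5005 times that level, and Gfra1 was highest in the PaSC-labelled library, with the PlpSC-labelled library at 1.45 times the SG-labelled one and so no longer past the 1.5-fold limit. Only Ret and Etv5 remained highest in the PlpSC-labelled library, at 2.17 and 1.85 times the SG-labelled library, while Id4, Nanos2 and Bcl6b kept their libraries. With the same sum computed without the highest genes, with median ratios, and with division by Nudcd3, the reference gene of the RT-qPCR (24.7, 25.6, 26.2 and 22.2 FPKM), the 7 genes were highest in the PlpSC-labelled library as in the deposited values. In the sum scaling 40.2% of all genes were highest in the SG-labelled library and 11.6% in the PlpSC-labelled library.

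**Figure D3:**
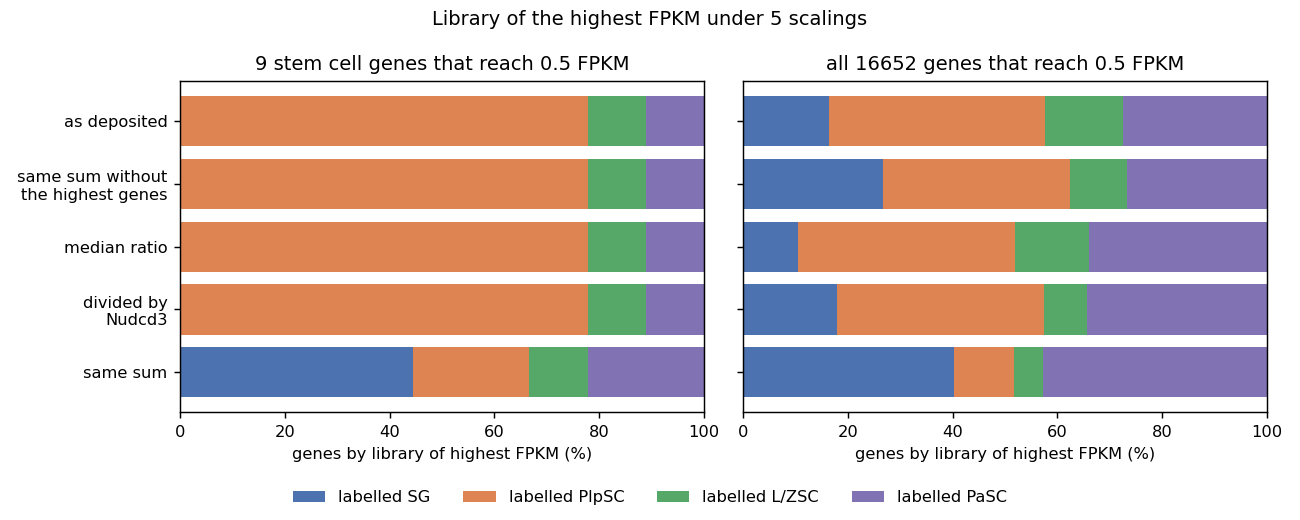
Share of genes (horizontal axis, %) with their highest FPKM in each library, under 5 scalings, for the 9 stem cell genes that reach 0.5 FPKM (left) and for all 16652 such genes (right). Of the 9 genes, 7 lie in the PlpSC-labelled library under every scaling but the plain same-sum one, where 4 lie in the SG-labelled library and 2 in the PlpSC-labelled library.

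Of the GDNF family, the ligand gene Gdnf was low everywhere, at 1.12 FPKM (SG label), 0.709 (PlpSC label), 0.233 (L/ZSC label) and 0.223 (PaSC label). Its highest level was thus in the SG-labelled library, unlike either of its receptor genes. The other ligand genes took separate courses. Nrtn, for neurturin, was at 4.69, 8.91, 3.55 and 9.14 FPKM, Artn, for artemin, was at 4.08 FPKM in the PaSC-labelled library and 0.191 in the PlpSC-labelled library, and Pspn, for persephin, lay between 0.726 and 1.79 FPKM. Among the co-receptors, Gfra4 was the most abundant, at 28.2 FPKM (SG label), 3.06 (PlpSC label), 41.2 (L/ZSC label) and 41.2 (PaSC label). This was the opposite of Ret, with the low value in the PlpSC-labelled library. Gfra2 reached 6.47 FPKM in the PaSC-labelled library, and Gfra3 0.548 FPKM in the PlpSC-labelled library, listed at 0 in the PaSC-labelled library. Of these 9 genes, 4 were higher (30.1% of all genes) and 5 lower (30.9%) in the PlpSC-labelled library than in the SG-labelled library.

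Paralogues of the 10 genes did not share one course. Of 19, 12 were highest in the PlpSC-labelled library, 3 in the SG-labelled library, 2 in the L/ZSC-labelled library and 2 in the PaSC-labelled library, where all genes gave 41.3%, 16.3%, 15.1% and 27.4%. With equal sums 8 were highest under the SG label, 6 under PlpSC, 0 under L/ZSC and 5 under PaSC. All genes then gave 40.2%, 11.6%, 5.37% and 42.9%. In the deposited values 11 were higher (30.1% of all genes) and 5 lower (30.9%) under the PlpSC than under the SG label. Of the other Id genes, which encode the same kind of HLH inhibitor, Id1 and Id3 were higher in the PlpSC-labelled library than in the SG-labelled one, where Id4 was lower. Id1 was at 7.83 FPKM in the SG-labelled library and 33.0 in the PlpSC-labelled library, Id3 at 29.7 and 104 FPKM, and both were under 5 FPKM under the L/ZSC and PaSC labels, where Id4 was at 87.2 and 47.8 FPKM. Id2 was at 31.8, 23.7, 4.77 and 1.23 FPKM, lower at the first and last steps as Id4 was, though within 1.5-fold at the first. Foxo3 and Foxo6, at 24.7 and 6.98 FPKM in the SG-labelled library and 17.8 and 4.15 in the PlpSC-labelled library, had their maximum in the SG-labelled library, and Foxo4, at 7.12 FPKM, in the PlpSC-labelled library. Etv4 and Etv1, the ETS relatives of Etv5, followed it with maxima of 2.10 and 1.82 FPKM in the PlpSC-labelled library. So did Nanos3 and Nanos1, at 2.49 and 4.66 FPKM, whereas Nanos2 was at 0.166 FPKM there. Lin28b was at 4.86, 7.94, 3.36 and 2.23 FPKM, the same order as Lin28a with a smaller range. Sall2 and Sall1 reached 2.01 and 0.601 FPKM in the PlpSC-labelled library, but Sall3 2.52 FPKM in the PaSC-labelled library. Zbtb32, a relative of Zbtb16, was at 87.1, 27.4, 95.6 and 76.7 FPKM, low in the PlpSC-labelled library like Id4, and Bcl6 lay between 0.164 and 0.523 FPKM.

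A further 24 genes known from undifferentiated spermatogonia were taken as a second list, chosen like the members with earlier results known. Of these, 17 reached 0.5 FPKM, and 13 of the 17 were highest in the PlpSC-labelled library (41.3% of all genes), 3 in the SG-labelled library (16.3%) and 1 in the PaSC-labelled library (27.4%). With equal sums 9 were highest in the SG-labelled library (40.2% of all genes) and 7 in the PlpSC-labelled library (11.6%). In the deposited values 12 were higher (30.1% of all genes) and 2 lower (30.9%) under the PlpSC than under the SG label, and 1 was higher (30.7%) and 16 lower (45.4%) under the L/ZSC than under the PlpSC label. The most abundant were Taf4b, a TFIID subunit of germ cells, at 13.8, 44.4, 4.62 and 2.91 FPKM under the SG, PlpSC, L/ZSC and PaSC labels, and Mcam, a cell adhesion molecule that vessels also express, at 9.31, 40.9, 4.76 and 1.91 FPKM. Dusp6, a phosphatase that damps ERK signalling, was at 20.5, 28.9, 4.41 and 0.897 FPKM. The 3 genes highest in the SG-labelled library were Cxcr4 (4.01 FPKM, against 3.45 in the PlpSC-labelled library), Cdh1 (0.703 against 0.375) and Utf1 (1.32 against 0.288), named after their values were seen. Of the 7 genes that did not reach 0.5 FPKM, Neurog3 and Pax7 had their small maximum in the SG-labelled library, at 0.434 and 0.0383 FPKM. With all 24 genes kept, the median log2(FPKM + 0.5) differences were 0.60, -1.19 and -0.11 at the successive steps. Of the 24 genes, Lin28b, Nanos3 and Etv4 also stand among the paralogues.

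Genes of differentiating spermatogonia stood in the same library. Of 10, 9 were highest in the PlpSC-labelled library (41.3% of all genes), and 8 were higher there than in the SG-labelled library (30.1%). Kit, the receptor that marks the differentiating step, was at 5.59, 19.0, 2.43 and 2.83 FPKM, and Stra8, which responds to retinoic acid at meiotic entry, at 18.6, 47.1, 5.88 and 1.96 FPKM. Rhox13 and Dmrt1 reached 54.1 and 62.5 FPKM in the PlpSC-labelled library, against 8.74 and 29.8 in the SG-labelled library. The exception was Dmrtb1, at 219, 38.1, 356 and 461 FPKM, low in the PlpSC-labelled library as Id4 and Zbtb32 were. All 8 pachytene genes were also lower there than in the SG-labelled library (30.9% of all genes). From the PlpSC-labelled library to the L/ZSC-labelled library all 8 were higher (30.7%). Scaled to the same sum, 5 of the 10 differentiating genes were highest in the PlpSC-labelled library (11.6% of all genes) and 4 in the SG-labelled library (40.2%). The genes of stem cells and those of the differentiating step were thus not set apart by library.

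Genes of other testicular cells moved with the libraries too. Over all genes, 16.3% were highest under the SG label, 41.3% under PlpSC, 15.1% under L/ZSC and 27.4% under PaSC. The 6 interstitial fibroblast genes summed to 37.5 FPKM (SG label), 718 (PlpSC label), 18.8 (L/ZSC label) and 6.47 (PaSC label), and 6 of 6 were highest in the PlpSC-labelled library, among them Col3a1 at 233 FPKM. The 8 macrophage genes summed to 24.8, 406, 17.7 and 10.2 FPKM, with 8 of 8 highest in the PlpSC-labelled library. The 5 peritubular myoid genes, whose cells secrete GDNF, summed to 23.0, 122, 19.3 and 10.8 FPKM, again with 5 of 5 highest there. The 10 Sertoli cell genes had the opposite bias, at 1605, 803, 445 and 118 FPKM with 9 of 10 highest in the SG-labelled library, as Gdnf was. The 6 Leydig cell genes summed to 36.3, 786, 53.1 and 2168 FPKM, of which Insl3 held 1834 FPKM under the PaSC label. Of the 6, 4 were highest there and 2, Hsd3b1 and Hsd3b6, in the PlpSC-labelled library. The 6 spermatid genes summed to 9.24, 9.81, 88.7 and 11499 FPKM, with 6 of 6 highest in the PaSC-labelled library. Spermatids form after meiosis, later than the stage that this label names. As given above, only 5 of 577 ratios of that library to the list's PaSC column lay within 1% of their median. Beyond this, whether the label and age given for the PaSC-labelled library hold was not tested. The 6 endothelial genes summed to 17.0, 21.8, 6.12 and 5.21 FPKM, with 4 of 6 highest in the SG-labelled library and only Egfl7 and Cdh5 in the PlpSC-labelled library. With equal sums all 6 endothelial and all 10 Sertoli cell genes were highest under the SG label (40.2% of all genes). All 6 Leydig cell and all 6 spermatid genes were then highest under PaSC (42.9%). The fibroblast, macrophage and myoid genes all stayed highest under PlpSC (11.6%). No gene of these somatic lists was at 0 in any library. Several members, Etv5, Zbtb16, Gfra1, Ret and Foxo1 among them, are not restricted to germ cells, and the part of these other cells in the members' values was not tested. The 10 members together summed to 99.6, 82.3, 100.2 and 58.7 FPKM. Id4 made up most of that sum except in the PlpSC-labelled library, where it was 19.7 FPKM beside Etv5 at 20.7 FPKM.

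**Figure D4:**
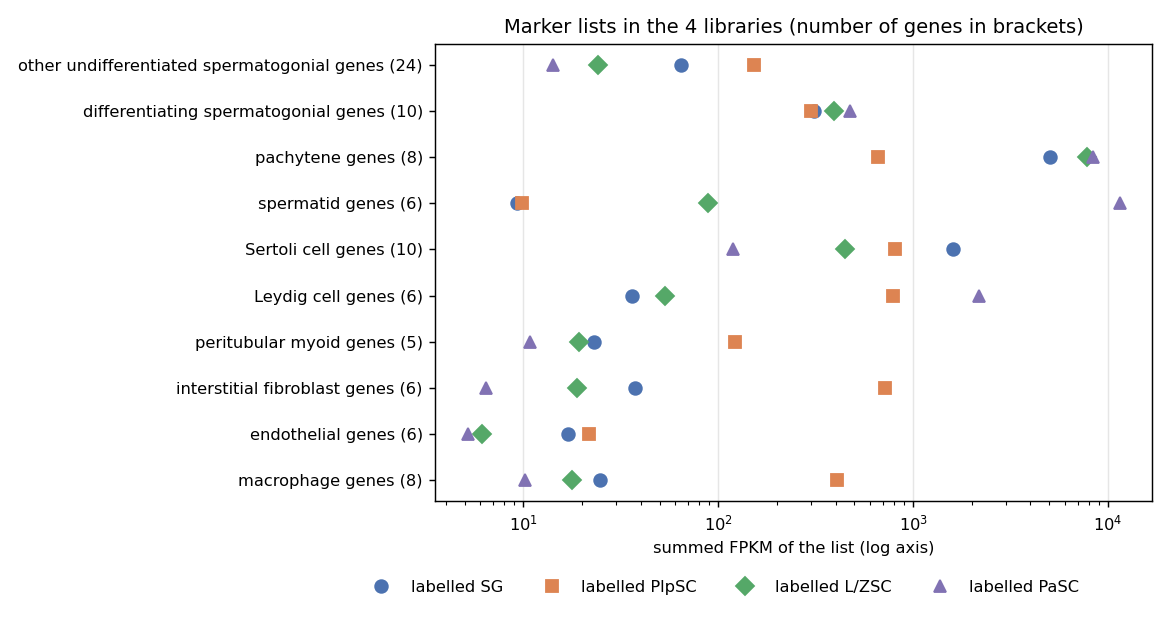
Summed FPKM (log axis) of the gene lists of germ cell stages and of other testicular cells in the 4 labelled libraries, 1 value per library. Fibroblast and macrophage genes stand highest in the PlpSC-labelled library, at 718 and 406 FPKM, Sertoli cell genes in the SG-labelled library at 1605 FPKM, and pachytene genes are at 5041 FPKM in the SG-labelled library but 663 FPKM in the PlpSC-labelled library.

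The members' median course, which not all of them followed, was also set beside all other genes of at least 5 FPKM in any library. This was done by Euclidean distance between log2(FPKM + 0.5) profiles centred on their own mean over the 4 libraries. The median profile of the 10 members was 0.21, 1.31, -0.65 and -1.19. The nearest genes were Ssbp1 (distance 0.16), Zkscan8 (0.17), Ube2g1 (0.17), Katnbl1 (0.17) and Tubgcp3 (0.17). Ssbp1, a mitochondrial DNA-binding protein gene, was at 13.5, 29.7, 7.18 and 4.81 FPKM, and Tubgcp3, for a subunit of the gamma-tubulin complex, at 9.87, 23.2, 5.28 and 3.50 FPKM. Of the members, Zbtb16 and Lin28a lay nearest to the median, at 0.39 and 0.44, and Bcl6b and Id4 farthest, at 2.98 and 3.23. Each of the nearest genes above was thus closer to the median profile than any member. With only 4 points a profile has few degrees of freedom, and likeness is given as a description.

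Promoters of members were read from RefSeq (GRCm38.p6, 250 bases before to 50 after the start) for 6 of the 10 genes. They are shown for a pair that was highest in the PlpSC-labelled library, Gfra1 and Etv5, and a pair that was not, Id4 and Nanos2. Capitals mark matches, on either strand, to the GC box GGGCGG, the CAAT box motif CCAAT, the TATA motif TATAAA, the E-box CACGTG, the forkhead motif GTAAACA or the ETS motif CCGGAA, and each sequence runs 5′ to 3′ on the strand of the gene.
Gfra1, chr19:58455349-58455648, minus strand: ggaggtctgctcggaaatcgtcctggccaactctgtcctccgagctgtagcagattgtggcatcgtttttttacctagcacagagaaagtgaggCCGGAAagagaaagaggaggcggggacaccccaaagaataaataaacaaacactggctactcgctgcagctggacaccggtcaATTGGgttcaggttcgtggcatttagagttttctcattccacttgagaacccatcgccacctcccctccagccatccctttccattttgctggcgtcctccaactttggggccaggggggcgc
Etv5, chr16:22439521-22439820, minus strand: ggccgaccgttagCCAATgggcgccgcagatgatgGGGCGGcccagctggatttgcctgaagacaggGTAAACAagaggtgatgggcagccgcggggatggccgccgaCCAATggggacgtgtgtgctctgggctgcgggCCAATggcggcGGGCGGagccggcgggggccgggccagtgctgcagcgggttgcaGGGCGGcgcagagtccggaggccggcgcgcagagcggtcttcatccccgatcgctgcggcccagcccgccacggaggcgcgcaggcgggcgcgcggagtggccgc
Id4, chr13:48260866-48261165, plus strand: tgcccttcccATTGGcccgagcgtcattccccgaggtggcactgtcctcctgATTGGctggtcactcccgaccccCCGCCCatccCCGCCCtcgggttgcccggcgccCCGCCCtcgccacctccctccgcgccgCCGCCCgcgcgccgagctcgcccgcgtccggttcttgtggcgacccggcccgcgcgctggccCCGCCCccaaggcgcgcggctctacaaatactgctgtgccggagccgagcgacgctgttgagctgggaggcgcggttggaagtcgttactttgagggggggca
Nanos2, chr7:18987274-18987573, plus strand: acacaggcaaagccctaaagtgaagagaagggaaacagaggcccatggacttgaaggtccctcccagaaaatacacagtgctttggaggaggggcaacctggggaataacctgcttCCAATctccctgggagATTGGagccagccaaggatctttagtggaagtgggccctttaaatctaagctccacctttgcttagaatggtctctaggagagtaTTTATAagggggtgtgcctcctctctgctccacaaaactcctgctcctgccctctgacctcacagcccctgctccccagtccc
The Id4 promoter was 73.3% GC with 39 CG pairs and 5 matches to GGGCGG, and the Etv5 promoter shown 74.0% GC with 37 CG pairs and 3 matches. A second Etv5 start in the table, not shown, had 60.0% GC, 19 CG pairs, 1 CCAAT and no GGGCGG. Gfra1 had 54.0% GC, 12 CG pairs and no GGGCGG, and Nanos2 53.0% GC, no CG pair and 1 TATAAA. Over 32851 promoters the median was 52.7% GC and 7 CG pairs, and 35.7% held the GC box, 37.4% the CAAT box motif, 13.6% the TATA motif, 7.15% the E-box, 3.65% the forkhead motif and 14.9% the ETS motif. A GC content of 73.3% or more thus occurred at 1 of 2 starts of Etv5, highest in the PlpSC-labelled library, and at Id4, lowest there. Gfra1, Etv5, Lin28a and Foxo1, the members highest in the PlpSC-labelled library with a promoter in the table, had no motif of the 6 in common. A match is a description of the letters and not a binding site.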

How the data were processed

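RNA-seq of 4 labelled stages of mouse testicular cells was deposited as 1 gene table. Alignment to mm10 was by TopHat, and the authors computed the deposited FPKM values with Cuffdiff on RefSeq genes, with versions not given in the sources used here. FPKM depends on a scaling over all genes, so a few abundant RNAs can shift a library. Counts were not given, so no count model was run, and with 1 library per stage no test was made. Ratios over 1.5-fold were called, among genes of 0.5 FPKM or more in at least 1 library. Medians used log2(FPKM + 0.5). Scaling, filter, fold and pseudocount were varied. Fragment numbers were estimated from steps in low FPKM of genes with 1 transcript of 2 kb or more (GENCODE M21), a choice made after seeing the data, with exact Poisson intervals for numbers and exact binomial ones for ratios. Scripts ran in Python 3.11.15 with pandas 2.3.3, numpy 2.4.6 and scipy 1.17.1. The members, lists and rules were chosen with earlier results of these data known. Named were all members, members of the GDNF and paralogue lists at 0.5 FPKM or more, up to 4 most abundant genes of other lists, Nudcd3 and the 5 nearest profiles. Not every gene this rule admits is named. Kit, Cxcr4, Cdh1, Utf1, Neurog3, Pax7 and Hsd3b1 are named outside it, chosen after their values were seen. The list of general germ cell genes (6 genes, 3 highest in the PlpSC-labelled library and none in the SG-labelled library) was not used further.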

Additional observations from a re-analysis of the deposited data

How the results depend on the processing

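Scaling each library to the same sum changed the comparison of the PlpSC-labelled library with the SG-labelled library. The ratios of Foxo1, Lin28a, Sall4 and Zbtb16 then turned to 0.5005, 0.797, 0.639 and 0.958. Median log2 differences in this section are over genes that reach 0.5 FPKM. They moved from 0.95 to -0.30 for the members and from 0.90 to -0.086 for the other undifferentiated genes. For the differentiating genes the median moved from 1.19 to -0.13, and for all 16652 genes from 0 to -1.03. Gfra1 fell short of 1.5-fold with this scaling, at 1.45. With equal sums 2 members were higher and 4 lower in the PlpSC-labelled library than in the SG-labelled library. From the L/ZSC-labelled library to the PaSC-labelled library 2 were higher and 3 lower, where the median of all genes was 0.20. The shares of all genes called at these steps with equal sums are not given here. The maximum of 4 members was in the SG-labelled library (40.2% of all genes). It was in the PlpSC-labelled library for 2 (11.6%) and in the PaSC-labelled library for 2 (42.9%). Where a count in this section has no share of all genes beside it, it describes the members only. Over the 9 members that reach 0.5 FPKM, the median from the L/ZSC-labelled library to the PaSC-labelled library was -0.60 as deposited. It was -0.35 with equal sums, -0.43 with division by Nudcd3, -0.49 with median ratios and -0.46 with a pseudocount of 1. Each of these last values was short of 1.5-fold. Division by Nudcd3 and median ratios each gave 2 members higher in the PaSC-labelled library than in the L/ZSC-labelled library. With a filter at 5 FPKM, 1 member was higher in the L/ZSC-labelled library than in the PlpSC-labelled library, 0 were higher in the PaSC-labelled library than in the L/ZSC-labelled library or the SG-labelled library, 0 were highest in the PaSC-labelled library and 1 was lower in the PlpSC-labelled library than in the SG-labelled library. These last counts follow from fewer genes being kept. A fold threshold of 2 left 3 members lower in the PaSC-labelled library than in the L/ZSC-labelled library and 1 lower in the PlpSC-labelled library than in the SG-labelled library. Without a filter 2 members were highest in the L/ZSC-labelled library. The same sum without the highest genes kept 70 results as they were and left Sall4 short of 1.5-fold from SG to PlpSC, at 1.39, while Nanos2 passed it downward at 0.648. Id4 was no longer lower by 1.5-fold from SG to PaSC with equal sums (0.775), Nudcd3 (0.727) or median ratios (0.843). The filter, fold threshold, pseudocount and scaling change these results by arithmetic. Each scaling shifts the log2 ratios of all genes in a comparison by the same amount. From SG to PlpSC this was -1.34 with equal sums and -0.22 when the highest genes were left out of the sum. Which scaling is closest to the RNA of the cells was not tested. No paired analysis was possible because each stage has 1 library, and no replicate could be left out. Depth limits Nanos2 and, in the PaSC-labelled library, Ret.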
